A study of Mus musculus with 4 samples.

Results

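In mouse germline stem cells kept in culture for about 5 or about 60 months, 1373 stretches of 1 kb were highly methylated in the younger culture and lower by at least 30 percentage points in the older one. They were selected on the measured levels themselves, out of 1191832 non-overlapping 1 kb tiles of chromosomes 1 to 19 that held 6 or more CpGs with at least 5 methylation calls in both cultures. A tile had to stand at 60% or more in the 5-month cells (5M-GS) and at least 30 points lower in the 60-month cells (60M-GS). A tile's level sums the calls of its CpGs and gives the methylated ones in percent. Of the 1043153 tiles at 60% or more in 5M-GS, 0.132% met the limit. The size of the loss is therefore a description, and no test is attached to it.

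The cells are germline stem (GS) cells grown from testis of wild type Green mice, which carry the GFP transgene Tg14(act-EGFP)OsbY01 from C57BL/6, on a DBA/2 background. Both ages were grown with human FGF2, rat GDNF and fetal bovine serum. DNA methylation was read over the whole genome by bisulfite sequencing after post-bisulfite adaptor tagging, in which adaptors are added once the bisulfite step is done. Each age had 2 replicates, which were joined in 1 table per age before deposit, and the spread between them is therefore not known. No expression values were used here, so the cells were not checked against marker genes. The labels do not say whether the 2 ages are 1 culture line followed over time, so age and culture line cannot be told apart. On chromosomes 1 to 19 the tables held 460132775 calls for 5M-GS and 463443117 for 60M-GS, with a median of 22 calls per CpG in both. Intervals are 95% intervals (Wilson for shares, Newcombe for differences) and cover counting error only, since calls on the same read or from the same original molecule are not independent. Intervals with each tile's calls divided by its CpGs were wider. They lay wholly below 0 in 1331 of the 1373 tiles (96.9%) and wholly below -10 points in 740 (53.9%). Intervals printed below are on the undivided calls unless stated.

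In mammalian DNA, methyl groups sit mostly on the C of CpG pairs, and most CpGs outside of gene starts and other regulatory sequence are methylated. The pattern is copied at each cell division by the maintenance enzyme DNMT1 with its partner UHRF1, and is removed by TET enzymes or by division without copying. CpG-rich gene starts are usually unmethylated, and distal regulatory elements bound by transcription factors often show a local dip. Long culture is known to change such patterns in many cell types.

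The promoters below lie wholly inside such tiles and show the loss at the level of sequence. They are the windows from 250 bases upstream to 50 downstream of a RefSeq start site (GRCm38.p6, the same build as mm10), printed 5′ to 3′ on the strand of the gene, with each CpG in capitals. They come from the named genes with a start site in or beside a tile, which were named for the largest losses there. These windows are therefore extreme cases, since the whole set had a median of 33.9% in 60M-GS. Ssc4d encodes a scavenger receptor cysteine-rich protein (chromosome 5, 135974427 to 135974726, minus strand), Csta2 a stefin A type cystatin, a protease inhibitor (chromosome 16, 36221312 to 36221611, plus strand), and Oasl2 an interferon-induced relative of oligoadenylate synthetases (chromosome 5, 114896684 to 114896983, plus strand). D6Ertd527e is a protein-coding gene of unclear role (chromosome 6, 87104496 to 87104795, plus strand).
Ssc4d: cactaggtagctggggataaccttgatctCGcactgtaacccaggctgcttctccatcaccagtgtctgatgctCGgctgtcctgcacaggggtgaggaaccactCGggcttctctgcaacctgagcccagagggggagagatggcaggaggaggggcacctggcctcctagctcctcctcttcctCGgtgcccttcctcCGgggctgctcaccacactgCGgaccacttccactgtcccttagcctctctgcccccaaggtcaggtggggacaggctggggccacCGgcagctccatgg
Csta2: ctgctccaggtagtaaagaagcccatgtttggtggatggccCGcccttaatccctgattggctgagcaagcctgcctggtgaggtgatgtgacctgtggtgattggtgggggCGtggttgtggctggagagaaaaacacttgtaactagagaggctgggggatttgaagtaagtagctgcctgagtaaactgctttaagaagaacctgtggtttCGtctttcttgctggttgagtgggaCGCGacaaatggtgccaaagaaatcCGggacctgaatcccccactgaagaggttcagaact
Oasl2: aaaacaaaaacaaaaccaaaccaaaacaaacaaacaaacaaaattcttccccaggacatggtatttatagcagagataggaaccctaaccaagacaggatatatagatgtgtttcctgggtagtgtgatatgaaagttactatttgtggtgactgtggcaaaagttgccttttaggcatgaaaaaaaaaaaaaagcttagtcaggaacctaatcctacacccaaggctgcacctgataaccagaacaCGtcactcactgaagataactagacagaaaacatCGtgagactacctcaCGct
D6Ertd527e: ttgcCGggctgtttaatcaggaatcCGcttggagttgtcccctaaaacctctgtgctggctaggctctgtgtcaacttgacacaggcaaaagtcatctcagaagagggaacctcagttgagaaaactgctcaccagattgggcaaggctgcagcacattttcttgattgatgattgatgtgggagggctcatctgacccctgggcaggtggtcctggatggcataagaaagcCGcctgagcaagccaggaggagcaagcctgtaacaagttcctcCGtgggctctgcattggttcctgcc

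Every CpG of these windows with at least 5 calls in both tables was lower in 60M-GS. The 7 CpGs of the Ssc4d window went from 85.5% of 165 calls in 5M-GS to 7.48% of 147 in 60M-GS. From the upstream end to the start site, its levels in 5M-GS were 91.4%, 87.0%, 90%, 66.7%, 76.5% and 94.1%, and in 60M-GS 8.0%, 3.12% and then 0% at 4 CpGs. The CpG 36 bases past the start site kept 33.3% in 60M-GS. In the Csta2 window, 5 of its 6 CpGs had enough calls and stood at 91.0% of 89 calls and 19.6% of 92. Its CpG farthest upstream was the least reduced, at 90.5% and 40%, and the pair 11 and 9 bases before the start site went from 100% to 6.67%. That pair rests on few calls, 9 and 8 in 5M-GS and 15 each in 60M-GS. The 3 CpGs of the Oasl2 window all lay from 3 bases before to 46 bases past the start site, at 63.4% of 71 calls and 2.41% of 83. The 4 CpGs of the D6Ertd527e window were at 65.8% of 120 calls and 7.30% of 137, and the CpG 25 bases past the start site went from 50% to 0%.

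The 1373 tiles ranged from 60.1% to 96.4% in 5M-GS, with a median of 73.8%, and from 0.658% to 62.9% in 60M-GS, with a median of 33.9%. The median difference was -37.6 points, with quartiles of -45.2 and -33.0 points. Most of the losses were partial. In 60M-GS, 752 tiles (54.8%) kept 30% to 50%, 124 kept 50% or more, and 47 (3.42%) were under 10%. Losses of 60 points or more were seen in 64 tiles, and 514 (37.4%) lay between 30 and 35 points, close to the limit.

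**Figure D1:**
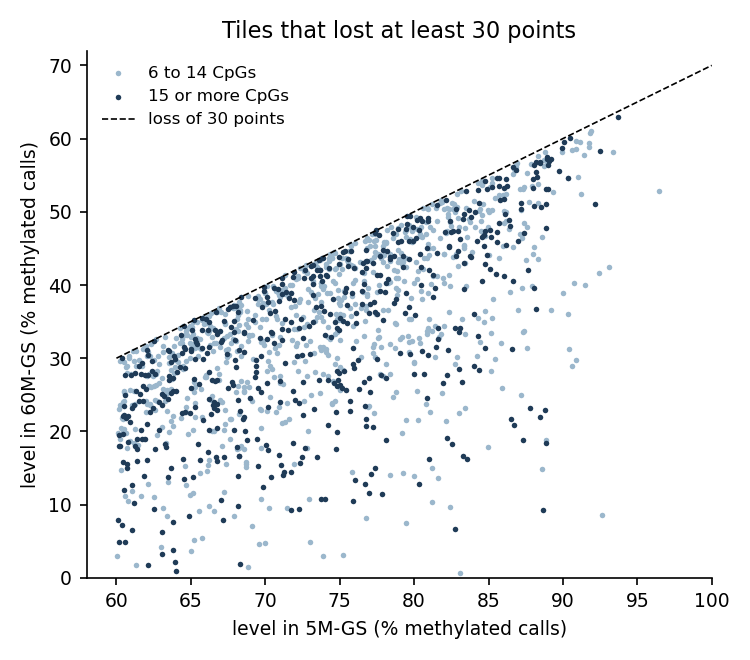
Each point is 1 of the 1373 tiles, with its 5M-GS level on the x axis and its 60M-GS level on the y axis, both in percent of methylated calls. The dashed line marks a loss of 30 points, under which all points lie by the rule, and dark points have 15 or more CpGs. Points crowd along the line, and 47 lie under 10% in 60M-GS.

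The 3 tiles just inside the limit stood at 77.5% and 47.5% (chromosome 2 from 121588001), 72.7% and 42.7% (chromosome 8 from 127440001) and 71.4% and 41.3% (chromosome 11 from 33035001). The 3 just outside stood at 73.5% and 43.5% (chromosome 4 from 58050001), 65.0% and 35% (chromosome 7 from 135332001) and 68.6% and 38.6% (chromosome 5 from 37081001). All 6 had a difference of -30.0 points when rounded, so the border of the set has no sharp edge. Counting error alone spread over both sides of the limit: the intervals of the 3 inside ran from -35.6 to -24.1, from -38.1 to -21.2 and from -38.8 to -20.5 points.

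Loss on this scale was rare beside gain. Of the 99329 tiles at 40% or less in 5M-GS, 15443 (15.5%) were at least 30 points higher in 60M-GS. With the 2 tables exchanged, the rule that gave 1373 tiles gave 22751, whose median went from 37.4% in 5M-GS to 86.2% in 60M-GS. Those tiles had a median of 14 CpGs and 44.3% of them lay over a gene, against 13 CpGs and 54.0% of the tiles that lost.

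The tiles that lost were rich in CpGs for their level. They held a median of 13 CpGs (quartiles 10 and 17), whereas the other 1041780 tiles at 60% or more in 5M-GS held a median of 9. To compare tiles of equal 5M-GS level, the others were weighted so that their spread over 5-point classes of 5M-GS level equalled that of the tiles that lost, which again gave a median of 9. Tiles with 15 or more CpGs made up 40% of those that lost (549, interval 37.4% to 42.6%) and 13.7% of the others at equal level. Read the other way, 0.0503% of tiles with 6 or 7 CpGs lost 30 points, 0.148% of those with 10 to 14, and 0.461% of those with 20 or more. At equal 5M-GS levels these shares were 0.202%, 0.684% and 2.04%. Tiles with more CpGs also have more calls: a median of 332 calls in 5M-GS in the tiles that lost, against 215 in the others at equal level. Depth per CpG was close: the tiles that lost had a median of 25.5 calls (5M-GS), and of 26.4 (60M-GS), against 23.8 and 24.2 in the others at equal level. The ratio of 60M-GS to 5M-GS calls per tile had a median of 1.03 and 1.02. The deepest CpG in any of these tiles had 105 calls, and without CpGs of over 74 calls 1371 of the 1373 tiles were still in the set.

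**Figure D2:**
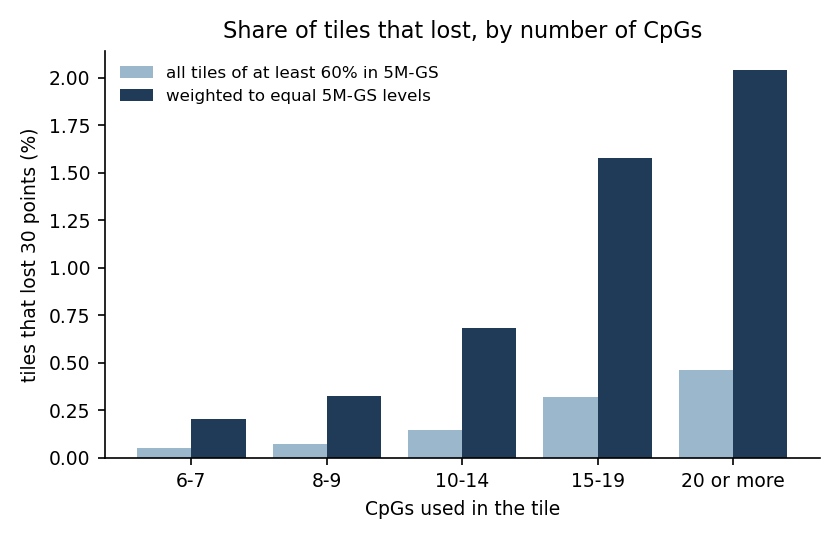
Bars give the percent of tiles at 60% or more in 5M-GS that lost at least 30 points, by the number of CpGs used in the tile (x axis), for all tiles (light) and weighted to the same 5M-GS levels in every class (dark). Both series go up with each class of CpG number, the dark one from 0.202% at 6 to 7 CpGs to 2.04% at 20 or more.

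Methylation in 5M-GS was also more even within the tiles that lost than within tiles of the same level. Within a tile, the SD between CpG levels in 5M-GS had a median of 17.5 points in the tiles that lost and 25.7 points in the others at equal 5M-GS level, or 24.3 when the number of CpGs was made equal too. This SD comes from the same 5M-GS calls that the rule used. It is therefore not independent of the choice of tiles and is given as a description. Low neighbours were more common around them: 23.7% (325, interval 21.5% to 26.0%) had a tile under 20% in 5M-GS within 2 kb, against 14.3% of the others at equal level and 16.9% at equal level and CpGs.

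Most of the difference lay within 2 kb. Median levels 5 to 10 kb away lay between 87.9% and 88.5% in 5M-GS, against 86.6% to 87.4% in 60M-GS, and the median difference there was between -1.21 and -0.885 points. Around the others of equal level it was between -0.622 and -0.580 points at the same distances. Of the 6446 tiles 3 to 5 kb away, 36 (0.558%) were lower by 30 points. These could have any 5M-GS level and be counted beside more than 1 tile of the set. The share is therefore not directly comparable with the 0.132% of all tiles at 60% or more in 5M-GS. Directly beside the tiles the median difference was -8.45 points over 2321 tiles, and 1043 of these (44.9%) were lower by at least 10 points, against 44 (1.90%) higher by as much. At 3 to 5 kb, 6.28% were lower and 6.11% higher by at least 10 points. Directly beside the others of equal level the median differences were -0.340 and -0.336 points, and such shares were not counted there. In 5M-GS the tiles that lost already stood in a shallow dip: a median of 73.8%, with 81.7% and 80.9% on either side and 88.0% and 87.9% at 5 kb. Around others of equal level the dip was narrower, with 85.1% directly beside and 87.1% at 5 kb.

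**Figure D3:**
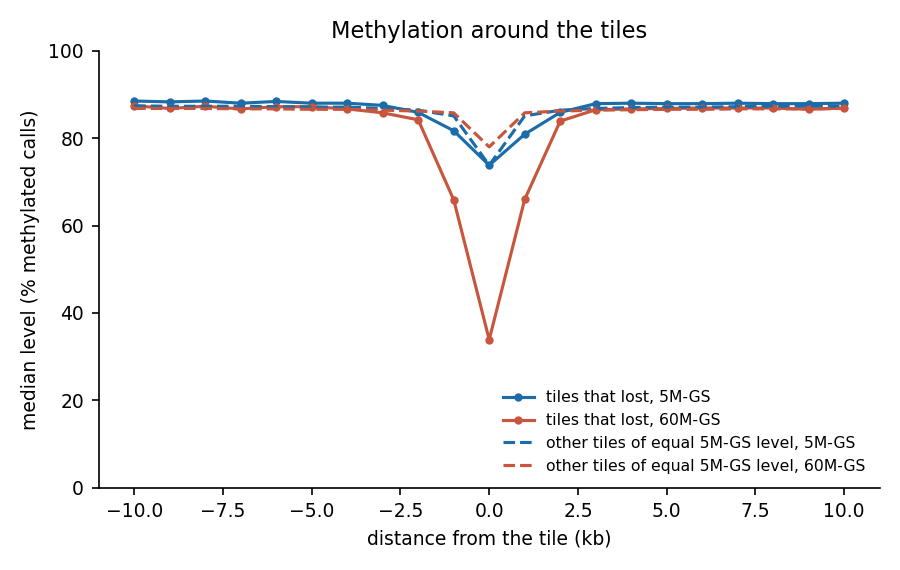
Lines give the median level (y axis, percent of methylated calls) of 1 kb tiles by their distance from the tile (x axis, kb), in 5M-GS (blue) and 60M-GS (red). Solid lines with points are centred on the 1373 tiles that lost, and dashed lines on the other tiles weighted to equal 5M-GS level. The solid red line goes down to 33.9% at the centre and meets the others within 3 kb.

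Adjoining tiles with intermediate or high methylation were lower too. Of the 1373 tiles, 437 (31.8%) had a directly adjoining tile at 20% to 60% in 5M-GS, too low to enter the set. These 468 neighbours went from a median of 43.4% to 19.4%, and 222 (47.4%) were lower by at least 20 points. Neighbours under 20% (191) went from a median of 9.93% to 3.85%. Those at 60% or more (1662), which include other tiles of the set, had medians of 86.2% and 78.5%, and 387 (23.3%) were lower by at least 20 points. These shares were not counted beside other tiles of equal level. All of these belong to the same comparison that chose the tiles and are given as a description of its extent.

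CpG by CpG, the loss covered most but not all of a tile. The tiles held 18826 CpGs, of which 12754 (67.7%) were lower by at least 30 points and 945 (5.02%) were not lower at all. In 160 tiles at least 90% of CpGs lost 30 points, and in 181 under 50% did. Of all CpGs, 6723 (35.7%) stood under 20% in 60M-GS. To measure the extent without regard to tile borders, calls were pooled over 3 neighbouring CpGs, and runs of CpGs with a pooled loss of at least 20 points were followed in both directions. The stretch through a tile had a median of 14 CpGs and 890 bp, with quartiles of 599 and 1243 bp, and 1019 (74.2%) passed an edge of the tile. The longest was 5643 bp, and 58 were 2000 bp or more.

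Most tiles stood alone. Joining tiles whose starts lay within 2 kb gave 1256 runs, of which 1142 held 1 tile, 111 held 2 and 3 held 3. Another such tile lay within 2 kb for 16.8% of the tiles (interval 14.9% to 18.9%), which includes elements cut by a tile border, whereas 0.373% of the others at equal level lay that near to one. Farther out the contrast was smaller: 11.1% (interval 9.59% to 12.9%) had another such tile within 50 kb but none within 2 kb. The others had 6.84% at equal level and 8.38% at equal level and CpGs. Tiles with one within 2 kb cannot count here, which lowers the share of the set more than that of the others. The 11.1% are 153 tiles, all among the 1142 that stood alone. A tile that gained 30 points lay within 10 kb of 16.6%, against 13.2% and 14.6%.

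All 19 autosomes held such tiles, from 0.104% of tiles at 60% or more on chromosomes 14 and 16 to 0.177% on chromosome 19. Of 489 windows of 5 Mb with at least 500 tiles, a division added after the named genes had been seen, 117 held none and the median was 2. The windows with the most were chromosome 8 from 120000001 to 125000000, with 22, chromosome 5 from 110000001 with 19, and 2 on chromosome 4, from 135000001 and from 150000001, with 18 each. Their median CpGs per tile, 12 to 14, were above the 9 of all others, and their share of tiles that lost ran from 0.477% to 0.556%. The ratio of 60M-GS to 5M-GS calls was 1.01 in each of these 4 windows, near the median of 1.02 over all windows, which ranged from 0.810 to 1.15.

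Among tiles with 10 or more CpGs, the 10 with the largest losses ended between 0.658% and 18.9% in 60M-GS, and single CpGs in some of them stayed high. Inside Wdr66, which encodes a protein of cilia and flagella, the tile on chromosome 5 from 123258001 to 123259000 held 13 CpGs. They ranged from 50% to 100% in 5M-GS, and from 0% to 4.55% in 60M-GS, so the 2 ages did not overlap at any of them. The tile went from 83.1% of 367 calls to 0.658% of 304, a difference of -82.4 points (interval -86.0 to -77.9), and the tile before it from 52.6% to 2.47%. It lies 4213 bp from the start site of the gene.

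Beside Pkdcc, a secreted kinase of skeletal development, the tile on chromosome 17 from 83226001 lies 932 bp past one end of the gene and 10718 bp from its start. Its 15 CpGs ranged from 68.0% to 97.2% at 5 months and from 0% to 24.1% at 60 months, with all calls at 88.7% and 9.33%. The tile before it was already low, at 30.7% and 5.28%, and the one after it stood at 78.0% and 44.2%. Here the low stretch of 5M-GS was longer in 60M-GS. Inside Sh3rf3, a scaffold protein of the JNK kinase pathway, the tile on chromosome 10 from 58932001 was not preceded by a low tile, and the tile after it had too few CpGs for a value. Its 26 CpGs went from 82.8% of 800 calls to 6.69% of 717, each of them lower by at least 30 points, while the tile before it stood at 91.7% and 85.4%. It lies 118642 bp from the nearest start site, that of Sh3rf3 itself.

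**Figure D4:**
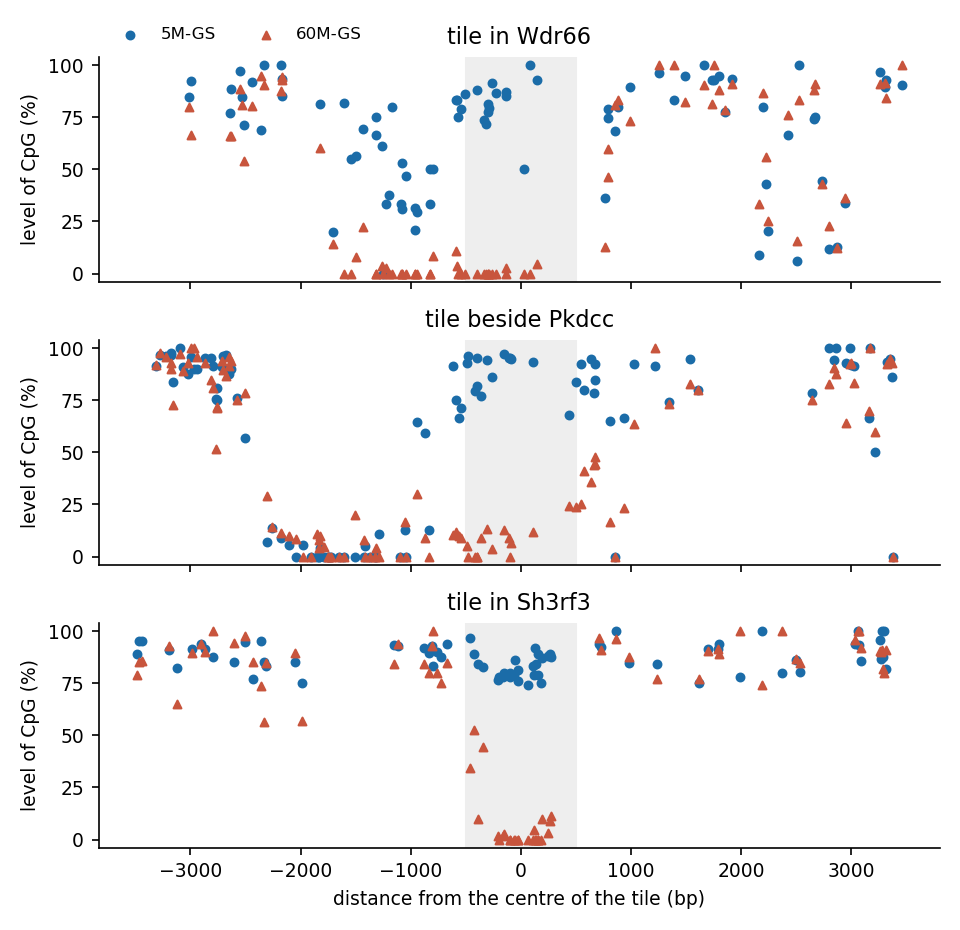
Each point is a CpG within 3 kb on either side of the 3 tiles with the largest losses among those with 10 or more CpGs. The x axis is the distance from the centre of the tile (bp), the y axis the level of the CpG in percent, blue circles are 5M-GS, red triangles 60M-GS, and the grey band is the tile. In Wdr66 and beside Pkdcc the low points of 60M-GS run on to the left of the tile, and in Sh3rf3 they lie inside it, where 60M-GS stands at 6.69%.

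Of the other 7 tiles with the largest losses, a pair on chromosome 8 from 41523001 to 41525000 lay in a gene-poor stretch, 302267 bp or more from a start site used here. Their 25 CpGs went from 83.8% of 352 calls to 12.6% of 412, and the tile that follows them was at 3.6% and 0%. The 5M-GS value of the pair's first tile rests on 123 calls, which is thin for this set. In Arhgef28, the tile on chromosome 13 from 98125001 went from 82.4% to 9.66%, beside a tile at 41.4% and 1.30%. Also on chromosome 13, the tile from 58730001, 10074 bp from the lncRNA gene 4930455J16Rik, went from 79.4% to 7.55%. At the lncRNA gene 4732419C18Rik, with its start site inside the tile, 30 CpGs on chromosome 8 from 123754001 went from 88.9% of 809 calls to 18.4% of 778. Near Llph, a nucleolar protein gene, the tile on chromosome 10 from 120237001 went from 87.3% to 18.9%, with 3 of its 22 CpGs not lower by 30 points.

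Longer stretches were few. The run with the largest mean loss of the 3 with 3 tiles began 301 bp past the start site of Nsg2, a neuronal vesicle protein, on chromosome 11 from 32001001 to 32004000. It went from 82.5% to 26.3% over 35 CpGs, while the tile before it was unmethylated in both ages, at 1.58% and 7.73%. The other runs of 3 lay in Arhgap26 on chromosome 18 from 38700001 (73.4% and 19.9%), and in Nt5c2, a cytosolic nucleotidase, on chromosome 19 from 46982001 (83.7% and 34.1%, 53 CpGs). Of the runs of 2 tiles with the largest losses, that in Trio on chromosome 15 from 27937001 to 27939000, went from 71.2% of 1606 calls to 11.1% of 1439, between tiles at 90.6% and 89.3% on one side and 89.4% and 90.3% on the other. That at 4732419C18Rik spanned 3 kb with a tile between its members and stood at 88.5% and 31.5%.

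By gene context, 742 tiles (54.0%, interval 51.4% to 56.7%) lay over a gene span, against 53.1% of the others at equal 5M-GS level, 57.1% at equal level and CpGs, and 61.3% without weighting. Protein-coding spans held 41.6%, against 43.2% at equal level and 47.0% at equal level and CpGs. A further 160 tiles (11.7%, interval 10.1% to 13.5%) lay over a lncRNA gene and no protein-coding one, against 8.30% and 8.48%. Exons and introns are not distinguished, since only gene spans and start sites were used.

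The tiles lay nearer to gene starts than tiles of equal level. Start sites were used for 25748 genes, among them 16457 of the 20665 protein-coding ones, and for none on chromosome 18, which leaves 1317 tiles. The median distance to a start site was 20241 bp, against 30259 bp for the others at equal level and 25547 bp at equal level and CpGs. Within 500 bp lay 56 tiles (4.25%, interval 3.29% to 5.48%), against 2.25% and 2.92%, and over 50 kb away 336 (25.5%, interval 23.2% to 27.9%), against 37.4% and 32.5%. More than 9 in 10 were thus neither at a start site used here nor within 500 bp of one, and most (722, 54.8%) lay 5 to 50 kb from one. Protein-coding genes without a start site here can begin nearer. The distances of the set and of the others are therefore upper bounds.

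**Figure D5:**
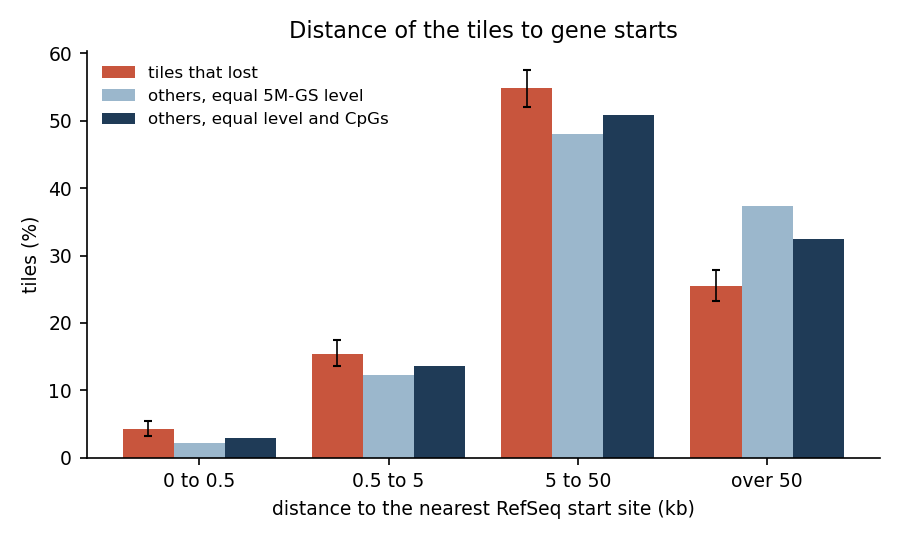
Bars give the percent of tiles by distance to the nearest RefSeq start site (x axis, kb) for the 1317 tiles that lost on chromosomes with start sites (red, with 95% Wilson intervals) and for the other tiles weighted to equal 5M-GS level (light) or to equal level and number of CpGs (dark). Red bars are higher than the others in the 3 nearer classes and lower over 50 kb, at 25.5% against 37.4% and 32.5%.

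At gene starts, 25 protein-coding genes had such a tile within 500 bp of a start site. Besides Nsg2, Ssc4d, Csta2, Oasl2 and D6Ertd527e, the 6 with the largest losses include BC028528, whose tile on chromosome 3 from 95891001 went from 71.4% of 448 calls to 9.50% of 484, beside a tile at 57.8% and 0.741%. Tiles at the other 19 genes differed by -48.4 to -30.2 points, the last of them at Lck. Among these, chosen after their values were seen, were Cd160, a receptor of NK and T cells (73.7% and 25.2%), Ptpn7, a phosphatase of blood cells (73.8% and 31.2%), Mr1, an MHC class I relative (72.5% and 35.6%), and Serpinf1, a secreted serpin (76.8% and 38.8%). The Cd160 tile also lies 65 bp from a start site of Pdzk1. Others of the 19 included Gucy1b2 (86.0% and 41.3%), Slc6a13 (81.4% and 39.6%) and Cyth1 (67.8% and 26.3%). A shared role of the 19 genes was not tested. Promoter windows touched by the tiles numbered 49, from 45 genes, and held a median of 5 CpGs in 300 bp, against 3 in windows touched only by other tiles at 60% or more in 5M-GS and 7 in all 31396 windows. Searched on both strands, the GC box GGGCGG was found in 28.6% of the 49, 8.27% of those of the other tiles and 36.0% of all windows. These shares were not weighted to 5M-GS level or number of CpGs, and each sequence searched for holds a CpG itself. The ETS letters CCGGAAG were found in 2.04%, 1.66% and 9.0%. The cAMP response element TGACGTCA and the E-box CACGTG were in none of the 49, in 0.634% and 4.78% of the windows of the other tiles, and in 1.83% and 7.14% of all windows. With 49 windows, shares as low as those of the cAMP response element give a count near 0. The shares of the E-box were higher, and its absence from the 49 was not tested. One tile held a miRNA gene, Mir6347 on chromosome 1 (66.8% and 33.6%).

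Within genes, 459 protein-coding genes held such a tile, of which 374 held 1, 61 held 2 and 24 held 3 or more. These genes were long, with a median span of 108997 bp against 17491 bp for all protein-coding genes, and a longer gene offers more tiles. The 3 with 5 tiles each all lie on chromosome 19. Atrnl1, a membrane protein related to attractin, had 368 tiles at 60% or more, and its 5 in the set stood at 81.4% to 87.8% in 5M-GS, against 17.8% to 44.2% in 60M-GS. In Rbm20, a splicing regulator of heart muscle, 5 of 152 were in the set. Its tile from 53726001 was the most reduced, from 78.1% to 18.9%, next to one at 40.5% and 16.9%. In Ablim1, an actin-binding LIM protein, 5 of 192 were in the set, with 60M-GS levels of 33.7% to 44.8%.

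Genes with 4 tiles included Trio, in which the tiles formed 2 separate pairs. The pair from 27922001, next to no low tile, kept 54.6% and 40.5% in 60M-GS. In Wwox, an oxidoreductase gene of great length, the 4 tiles of 801 lay far apart and ranged from 17.9% to 53.3% in 60M-GS. In Tshz2, a zinc finger regulator of development, the 4 tiles stood at 60.4% to 74% in 5M-GS, against 19.6% to 33.2% in 60M-GS, and one of them adjoined a tile that was at 1.97% and 1.01%.

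Genes of the pathways in the study's title were looked up by lists. Within 2 kb of their spans, 516 (2.50%) of all 20665 protein-coding genes had such a tile. Of 78 Wnt genes, 6 did (7.69%), and of 47 JNK genes 4 (8.51%), but these genes are longer, with median spans of 32500 and 39694 bp. Counted by tile, 7 of 3392 tiles at 60% or more over Wnt genes were in the set (0.206%) and 4 of 2419 over JNK genes (0.165%), against 623 of 573481 (0.109%) over all protein-coding genes. Counts this small allow no ranking of the lists, and no test was made.

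In the Wnt list, Lef1 and Tcf7, the transcription factors that act with beta-catenin, had tiles at 60.2% and 17.9% (chromosome 3 from 131190001, inside the gene) and at 72.6% and 32.8% (chromosome 11 from 52285001, 1618 bp outside the span and 1987 bp from the start). The Tcf7 tile lay between tiles that were low in both ages, at 2.21% and 1.48% before and 12.3% and 3.14% after. Ror2, a Wnt receptor kinase, went from 63.1% to 25.1% in a tile on chromosome 13 from 53175001, also between low tiles (7.95% and 2.29%, 23.5% and 15.1%). Lgr5, the R-spondin receptor that marks many adult stem cells, had a tile at 64.6% and 28.6% on chromosome 10 from 115520001. The remaining 2, named to complete the count, were Daam2, a formin of the planar polarity branch (79.1% and 44.3%), and the title ligand Wnt7b. The Wnt7b tile lay inside the gene on chromosome 15 from 85567001, with 13 CpGs at 86.9% of 388 calls and 56.1% of 287 (difference -30.8 points, interval -37.3 to -24.0), close to the limit of the set.

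In the JNK list, Sh3rf3 is described above. Dusp10, a phosphatase that inactivates JNK and p38, had a tile inside the gene on chromosome 1 from 184046001 at 83.4% of 151 calls and 23.2% of 164, between tiles above 87% in both ages. Map3k1, a kinase upstream of JNK, had one at 78.1% and 40.3% on chromosome 13 from 111798001, next to a tile at 7.73% and 1.15%. Sh3rf2, a relative of Sh3rf3, had one at 66.1% and 33.5%.

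Of 38 genes of spermatogonial stem cells, 3 had a tile (7.89%, against 2.50% of all protein-coding genes). By tile, 3 of 1362 were in the set (0.220%, against 0.109%), a count too small to set this list above others. The genes were Cdh1, the E-cadherin of undifferentiated spermatogonia, and Shisa6, a Wnt-modulating protein of these cells. The last was Pax7, a transcription factor of a small subset of them. The Cdh1 tile, inside the gene on chromosome 8 from 106618001, went from 74% of 277 calls to 10.8% of 352, with all 16 CpGs lower by at least 30 points, beside a tile at 47.5% and 5.20%. Shisa6 stood at 84.8% and 36.5%. Pax7 stood at 63.5% and 30.2%, and its difference of -33.3 points had an interval of -42.4 to -23.3. With calls divided by CpGs the interval was -60.0 to 4.23 points, which includes no change. Of 35 glycolysis genes, 1 had a tile, Hk1, encoding a hexokinase (75.7% and 36.9%). That is 2.86% of these genes and 0.126% of their 793 tiles, near the 2.50% and 0.109% of all protein-coding genes. None of 45 meiosis and piRNA genes, 18 DNA methylation genes and 30 marker genes of Sertoli, Leydig and fibroblast cells had one. Those 3 lists offered 1055, 592 and 591 tiles at 60% or more. At a share of 0.109%, so few tiles give few or no members, so their absence says little about these genes.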

How the data were processed

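Whole-genome bisulfite libraries of 2 replicates each of 5M-GS and 60M-GS were sequenced. The submitters' processing notes name Bismark 0.10.0 and the build mm10. In the deposited tables the authors give the count of methylated and of unmethylated calls per CpG, not normalized and with both strands of a CpG in 1 line, and a methylation percent by the authors, used here only to check the counts. Replicates were pooled before deposit. How reads were filtered or deduplicated is not given in the sources used here.

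Calls were summed over tiles of 1000 bp with Python 3.11.15, numpy 2.4.6 and pandas 2.3.3, from CpGs that had 5 or more calls in each table, in tiles with at least 6 such CpGs. Members and gene lists were chosen with earlier results of these data known. Other tiles at 60% or more in 5M-GS were weighted to the members' 5M-GS level in classes of 5 points, alone or with classes of CpG number. No test was made, since the members were chosen by the difference itself and replicates are pooled. The counting was checked on simulated data. Gene spans, start sites and promoter sequences are from RefSeq GRCm38.p6. The genome sequence, exons and repeats were not used here.

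Tiles and genes were named by rule: the 10 largest losses with 10 or more CpGs, the 6 runs with most tiles, the 6 protein-coding genes with most tiles, the 6 with the largest loss within 500 bp of a start site, 3 tiles on each side of the limit, and up to 4 genes per list, without Gm and Rik names for genes. Alternatives changed the calls per CpG, CpGs per tile, tile start, limits, averaging, high-depth CpGs, chromosomes and weighting.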

Additional observations from a re-analysis of the deposited data

Results flagged for a closer look

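Outside the chromosomes of the rule, the X chromosome held 40 tiles that met the same levels, 0.163% of its 24566 tiles at 60% or more in 5M-GS. They are listed here because these data were not part of the set. Their median went from 77.9% in 5M-GS to 37.5% in 60M-GS, with a median of 9 CpGs, against 13 on the autosomes. Depth on the X chromosome was lower, with a median of 13.1 calls per CpG in 5M-GS, against 13.6 in 60M-GS, and the part of counting error in this count was not tested.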

How the results depend on the processing

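No paired analysis was possible because each culture age is 1 pooled table, and for the same reason no replicate could be left out. Of 40 values recomputed under other settings, 28 stayed within 1.5 times (counts) or within the 95% interval (shares and medians of the set). Values of the other tiles were judged by the width of the set's own 95% interval. A minimum loss of 40 points gave 536 tiles with a median of 14 CpGs, 12.7% of them within 2 kb of another, and a minimum of 70% in 5M-GS gave 875 tiles. These 2 limits set the number of tiles by construction. At least 10 calls per CpG gave a median of 12 CpGs. At least 10 CpGs per tile gave a median of 15 and put 57.1% inside genes. Other tiles weighted to 5M-GS level and CpGs had a median of 13 CpGs, which that weighting itself brings about. They had 24.7 calls per CpG in 5M-GS, and 57.1% lay over genes. Without weighting, 61.3% lay over genes, with 25 calls per CpG. The tiles that lost, with 54.0% over genes, were thus above the others weighted to level alone (53.1%) and below them under the other weightings, so the direction of that contrast depends on the weighting. Tiles shifted by 500 bp numbered 1367. With the mean of CpG percents 1298 were found, of which 1090 were among the 1373, so 79.4% of the set was shared. Depth limits how exactly a loss near 30 points is known.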
